A study of Mus musculus with 9 samples.

Results

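The 9 genes described here are muscle ubiquitin ligases linked to atrophy, the FoxO transcription factors that drive them, and Eif4ebp1. They were taken by symbol from a table of 23231 genes: the ligases Trim63, Fbxo32, Fbxo30, Fbxo21 and Fbxo31, the factors Foxo1, Foxo3 and Foxo4, and Eif4ebp1. Each symbol had 1 row, and all 9 genes were among the 10794 tested. Total RNA was sequenced from the tibialis anterior, a lower leg muscle, of 6-month-old C57BL/6 mice after electroporation of small interfering RNA (siRNA). There were 3 libraries with siRNA construct 5 against Ubr4, 3 with siRNA construct 7 against Ubr4 and 3 with a non-targeting control siRNA. No mutation or transgene is named in the labels, and electroporation was shared by every group, the controls included. The labels do not say whether the libraries came from separate mice, so p-values measure only how libraries of a group scatter, which may be technical. The muscle is whole tissue, so fewer cells of a type and less RNA per cell cannot be told apart.

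In muscle wasting, proteins are marked with ubiquitin by E3 ligases and then broken down by the proteasome. Trim63 (MuRF1) is a RING ligase that acts on sarcomere proteins, and Fbxo32 (atrogin-1) is the substrate receptor of a ligase of the SCF type, built on the cullin Cul1 and the adaptor Skp1a. FoxO factors turn on both genes when insulin and IGF signalling is low, because the kinase Akt otherwise keeps these factors out of the nucleus. Eif4ebp1 encodes 4E-BP1, which holds back cap-dependent translation until mTOR phosphorylates it. The series screened ubiquitin ligases for an effect on muscle fibre size, and Ubr4 is itself a very large E3 ligase. The question taken up here is whether the classic atrophy ligases and their regulators differed when Ubr4 was lowered.

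RefSeq promoters (build GRCm38.p6, 250 bases before and 50 after the gene start) were found for 6 members: Trim63, Fbxo30, Fbxo21, Fbxo31, Foxo1 and Foxo3. The promoters of Trim63 and Fbxo30 are shown because these were the ligases that rose with construct 5. The Trim63 window is chr4:134314870-134315169 on the + strand. The Fbxo30 window is chr10:11281337-11281636 on the + strand. Capitals mark the forkhead element GTAAACA or its reverse complement TGTTTAC, the sequence that FoxO factors are known to bind.
Trim63: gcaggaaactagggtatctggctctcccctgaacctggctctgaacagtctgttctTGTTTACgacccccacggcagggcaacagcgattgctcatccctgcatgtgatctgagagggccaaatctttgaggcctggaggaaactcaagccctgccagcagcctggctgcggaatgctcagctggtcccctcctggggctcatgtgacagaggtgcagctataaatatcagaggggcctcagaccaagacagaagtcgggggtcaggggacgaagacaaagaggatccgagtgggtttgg
Fbxo30: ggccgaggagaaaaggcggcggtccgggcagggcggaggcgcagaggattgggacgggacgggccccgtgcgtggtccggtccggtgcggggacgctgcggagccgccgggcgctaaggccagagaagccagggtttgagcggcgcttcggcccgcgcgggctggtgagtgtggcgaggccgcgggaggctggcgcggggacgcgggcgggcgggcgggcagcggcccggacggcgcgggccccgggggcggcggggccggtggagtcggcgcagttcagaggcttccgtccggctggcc
The Trim63 window held 1 match, TGTTTAC, from 194 to 188 bases upstream of the start. GTAAACA was searched on both strands and occurred in 3.65% of 32851 RefSeq promoters of this length. The shorter element AAAACA, searched on both strands, was in 22.1% of promoters. No other match to either element lay in the 6 windows, which says only that these letters are not in these 300 bases. A match is a description of sequence and not a site of binding.

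Levels are in FPKM, which divides the fragments of a gene by its length and by the depth of the library. Depth recovered from the steps between FPKM values was 29312122 to 45563545 reads. Ubr4, the targeted gene, was lower in all 6 siRNA libraries than in any control: 3.38 ± 0.568 FPKM with construct 5, 2.63 ± 0.412 with construct 7 and 9.06 ± 1.22 in controls (mean ± SD, n = 3 each). The exact two-sided permutation test of the 6 siRNA libraries against the 3 controls gave p = 0.02381 for Ubr4. This is the smallest value that this test, which doubles the smaller tail, can give with these numbers. The skeletal muscle label fits its markers: 6 fibre genes such as Acta1 and Ckm summed to 49040 to 63930 FPKM across the libraries. Libraries with construct 5 stood somewhat apart. Their median-ratio scaling factors were 1.019 to 1.111, against 0.953 to 0.987 in the other 6 libraries, and the median of all tested genes with construct 5 lay 0.13 above the controls on the log2(FPKM + 1) scale. A member's change with construct 5 is therefore to be set beside 0.13. The p-values, intervals and calls below are against 0, and the folds are not shifted.

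In control muscle the members fell into an abundant set and a scarce set. Trim63 had the highest mean, 58.1 ± 3.04 FPKM, followed by Fbxo32 at 42.7 ± 11.9, Foxo4 at 37.7 ± 4.82, Eif4ebp1 at 28.1 ± 2.38 and Fbxo31 at 25.7 ± 2.59 FPKM (mean ± SD, n = 3). Foxo1 at 2.71 ± 0.103, Fbxo30 at 2.64 ± 0.234, Fbxo21 at 2.55 ± 0.221 and Foxo3 at 2.51 ± 0.240 FPKM (mean ± SD, n = 3) were the scarce ones. Fbxo32 and Foxo4 did not differ beyond their spread, nor did Eif4ebp1 and Fbxo31, nor any pair of the 4 scarce genes. Foxo4 made up 77.1% to 82.9% of the summed FPKM of Foxo1, Foxo3, Foxo4 and Foxo6 in every library. Such an order rests on the gene lengths that the authors used. The recovered length was 2722 bases for Fbxo32 and 981 for Eif4ebp1, where all exons of GENCODE M21 join to 6976 and 2196 bases. With those longer models the control means would be 16.7 FPKM for Fbxo32 and 12.5 FPKM for Eif4ebp1, while Trim63, Fbxo30, Foxo3 and Foxo4 would be unchanged. Foxo1 would be at 1.74 and Fbxo21 at 1.8 FPKM, below Foxo3 and Fbxo30, and Fbxo31 had no match in M21. Folds of mean FPKM within a gene do not depend on the length, whereas changes in log2(FPKM + 1) shrink as the FPKM falls: with a pseudocount of 0.1 that of Fbxo30 with construct 5 was 0.54 and not 0.43.

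**Figure D1:**
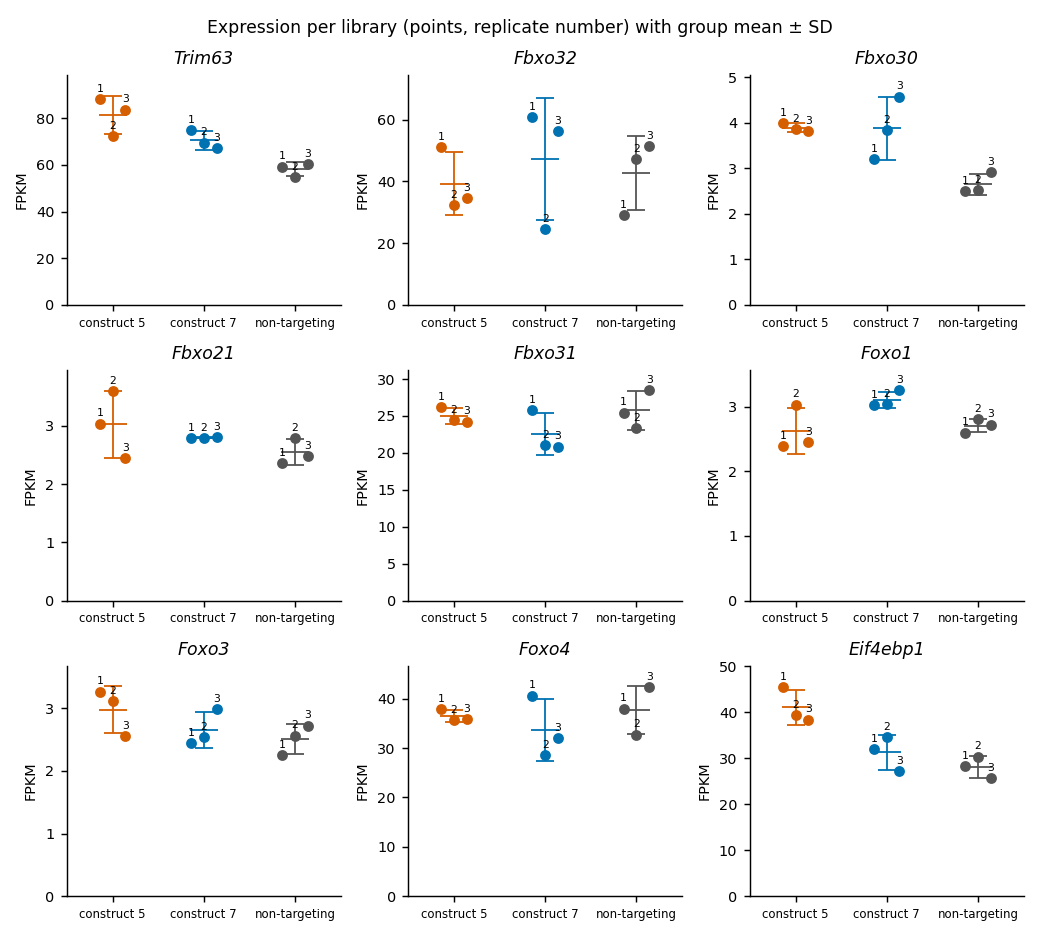
FPKM of the 9 members in each library (points, numbered by replicate) with group means and SD (bars, n = 3), for construct 5, construct 7 and non-targeting siRNA; each axis starts at 0. All 6 siRNA libraries of Trim63 and Fbxo30 lie above the 3 controls, whereas the points of Fbxo32 are mixed.

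Construct 5 was compared with the control siRNA first. Trim63, Fbxo30 and Eif4ebp1 rose with construct 5, by 1.40-fold, 1.47-fold and 1.46-fold of the control mean. The other 6 members, all 3 FoxO factors and Fbxo32 among them, did not pass the test. limma, with Benjamini-Hochberg adjustment over 10794 genes, thus called 3 of 9 members, all higher, where it called 5.27% of all tested genes and 4.67% as higher. A second tool, voom on reads recovered from the FPKM values, called the same number of members, 3, and 5.58% of all tested genes. The groups did not overlap, with construct 5 higher, for 3 of 9 members and for 33% of all tested genes. The median log2 change was 0.17 over the members and 0.13 over all genes.

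Trim63 (ENSMUSG00000028834) had 88.2, 72.3 and 83.7 FPKM with construct 5, against 59.3, 54.6 and 60.3 FPKM in controls. Every construct 5 library lay above every control, and construct 5 replicate 2 was the lowest of the 3. The log2 change was 0.48 (SE 0.0884, 95% interval 0.28 to 0.68, limma adjusted p = 0.0406). Trim63 was counted from 4937 to 9359 reads a library, so counting error was at most 1.42% of the value.

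Eif4ebp1 (ENSMUSG00000031490) had 45.4, 39.4 and 38.4 FPKM with construct 5, against 28.3, 30.3 and 25.6 FPKM in controls. Again the groups were separate, and replicate 1 was the highest. The log2 change was 0.53 (SE 0.107, 95% interval 0.29 to 0.77, limma adjusted p = 0.0409). Eif4ebp2, a paralogue named after its values were seen, averaged 21.1 ± 1.40 FPKM with construct 5 and 26.4 ± 5.32 in controls (SD, n = 3 each), a log2 change of -0.29 that did not pass (limma adjusted p = 0.194).

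Fbxo30 (ENSMUSG00000047648), also called MUSA1, is an F-box protein known to rise in denervated mouse muscle when BMP signalling is blocked. It had 3.99, 3.86 and 3.82 FPKM with construct 5, against 2.49, 2.52 and 2.91 FPKM in controls. The 3 construct 5 values lay close together and above all controls. The log2 change was 0.43 (SE 0.101, 95% interval 0.20 to 0.65, limma adjusted p = 0.0493), just inside the threshold.

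Fbxo32 (ENSMUSG00000022358), the other classic atrophy ligase, had 51.0, 32.2 and 34.7 FPKM with construct 5, against 29.2, 47.3 and 51.5 FPKM in controls. Both groups covered nearly the same range. Its log2 change was -0.10 (SE 0.342, limma adjusted p = 0.85), and the 95% interval, -0.87 to 0.66, includes the change seen in Trim63. So these libraries do not show that Fbxo32 and Trim63 responded differently.

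The remaining ligases gave small values. Fbxo21 (ENSMUSG00000032898; SMART), an F-box protein needed for full denervation atrophy in mice, had 3.04, 3.59 and 2.44 FPKM with construct 5, against 2.37, 2.79 and 2.49 FPKM in controls. Its groups overlapped, with a log2 change of 0.17 (limma adjusted p = 0.26). Fbxo31 (listed as Fbxo31.8.n, not an Ensembl identifier), an F-box protein known to mark cyclin D1 for breakdown, had 26.2, 24.5 and 24.2 FPKM with construct 5, against 25.5, 23.3 and 28.5 FPKM in controls. Its values with construct 5 lay inside the control range, with a log2 change of -0.04 (limma adjusted p = 0.81).

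None of the FoxO factors passed the test with construct 5. Foxo1 (ENSMUSG00000044167) had 2.38, 3.03 and 2.45 FPKM with construct 5, against 2.60, 2.80 and 2.72 FPKM in controls, a log2 change of -0.04 (limma adjusted p = 0.76). Foxo3 (ENSMUSG00000048756) had 3.27, 3.12 and 2.56 FPKM with construct 5, against 2.25, 2.57 and 2.72 FPKM in controls, a log2 change of 0.18 (limma adjusted p = 0.223). Construct 5 replicates 1 and 2 of Foxo3 lay above the controls and replicate 3 inside them. Foxo4 (ENSMUSG00000042903) had 37.8, 35.7 and 35.9 FPKM with construct 5, against 38.0, 32.7 and 42.3 FPKM in controls, a log2 change of -0.04 (limma adjusted p = 0.856). The 95% intervals ran from -0.22 to 0.14 for Foxo1, from -0.04 to 0.39 for Foxo3 and from -0.33 to 0.25 for Foxo4. Foxo6, the remaining FoxO gene and named after its values were seen, averaged 2.55 ± 0.435 FPKM with construct 5 and 3.55 ± 1.19 in controls (SD, n = 3 each; limma adjusted p = 0.283). FoxO activity is set largely by phosphorylation, which transcript levels do not measure.

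The calls of Trim63, Eif4ebp1 and Fbxo30 were close to the threshold, and scaling ended them. With median-ratio scaling limma called 0 of 9 members and 0.723% of all tested genes, with adjusted p-values of 0.0892 for Trim63, 0.0876 for Eif4ebp1 and 0.119 for Fbxo30; the changes kept their direction at 0.33, 0.39 and 0.31, and these 3 genes had an unadjusted p under 0.05, as had 22.8% of all tested genes. In that scaling the calls over all genes became 14 higher and 64 lower, against 504 higher and 65 lower as deposited. No member was called without control replicate 1, 2 or 3, construct 5 replicate 1 or construct 7 replicate 3; without construct 5 replicate 2 only Trim63 was called, and without construct 5 replicate 3 or construct 7 replicate 2 Trim63 and Eif4ebp1 were.

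**Figure D2:**
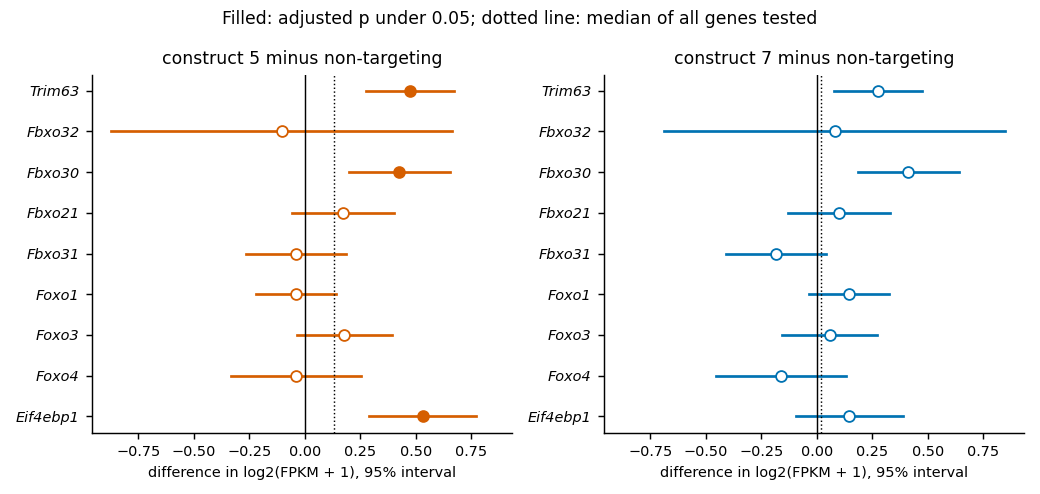
Difference in log2(FPKM + 1) from non-targeting siRNA for each member, with construct 5 on the left and construct 7 on the right (points, with 95% intervals from limma). Filled points passed an adjusted p of 0.05, and the dotted line is the median of all genes tested (0.13 with construct 5, 0.02 with construct 7).

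Summed macrophage, fibroblast, tendon and adipocyte markers also stood higher in each construct 5 library than in any control. The 9 measured macrophage markers summed to 192 to 353 FPKM with construct 5 and 119 to 177 FPKM in controls, with 1 of 9 called. The 6 fibroblast markers summed to 442 to 684 FPKM with construct 5 and 351 to 406 FPKM in controls, with 1 of 6 called. The 6 tendon markers summed to 100 to 147 FPKM with construct 5 and 45.1 to 66.0 FPKM in controls, with 2 of 6 called. The 5 adipocyte markers were scarce, at 2.48 to 17.0 FPKM with construct 5 and 1.59 to 2.45 FPKM in controls, with 0 called and only 1 tested. Of all tested genes limma called 5.27%. An unadjusted p under 0.05 was reached by 8 of 9 macrophage, 4 of 6 fibroblast and 5 of 6 tendon markers. For adipocyte markers it was 0 of 1, and over all tested genes 31.9%. The median log2 changes were 0.78 for macrophage, 0.40 for fibroblast and 0.99 for tendon markers, beside 0.13 for all genes. With median-ratio scaling 1 tendon marker passed, and 0 of the macrophage, fibroblast and adipocyte markers did. No marker of these lists was at 0 throughout a group. Construct 5 replicate 2 held the highest macrophage, fibroblast and adipocyte sums, and replicate 1 the highest tendon sum. The part of these markers in the result was not tested. The 4 neutrophil markers summed to 33.4 FPKM in construct 5 replicate 2, against 0.436 and 1.20 FPKM in replicates 1 and 3. In controls they summed to 0.252 to 1.79 FPKM, and limma called 0 of the 2 tested. The endothelial and Schwann cell lists overlapped: the 5 endothelial markers summed to 70.3 to 91.7 FPKM with construct 5 and 73.2 to 85.3 in controls, and the 5 Schwann cell markers to 15.2 to 28.9 FPKM with construct 5 and 20.3 to 34.9 in controls. With construct 7 the macrophage sum was 95.6 to 141 FPKM, the tendon sum 35.2 to 77.4 FPKM and the adipocyte sum 0.588 to 3.51 FPKM, all overlapping the controls. The fibroblast sum was 280 to 302 FPKM with construct 7, below every control, with 0 of 6 markers called. The 6 slow fibre markers summed to 60.2 to 89.7 FPKM with construct 5, 65.9 to 89.9 with construct 7 and 49.1 to 64.5 in controls. Of the 5 slow fibre markers tested, limma and voom called 0 in either comparison. At an unadjusted p under 0.05 there was 1 with construct 5 and 0 with construct 7, beside 31.9% and 9.47% of all tested genes.

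Construct 7 was compared with the same controls. Trim63 and Fbxo30 were again above every control library, as was Foxo1, but limma called 0 of 9 members, where it called 0.0556% of all tested genes. At an unadjusted p under 0.05 there were 2 members, Trim63 and Fbxo30, and 9.47% of all tested genes, while voom called 0 members and 0.0557% of all tested genes. All construct 7 libraries lay above all controls for 3 of 9 members and for 10.5% of all tested genes. The median log2 change was 0.10 over the members and 0.02 over all genes.

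Trim63 had 75.0, 69.6 and 67.1 FPKM with construct 7, against 59.3, 54.6 and 60.3 FPKM in controls, which is 1.22-fold. Its log2 change was 0.28 (95% interval 0.08 to 0.48, limma adjusted p = 0.365). Fbxo30 had 3.21, 3.84 and 4.57 FPKM with construct 7, against 2.49, 2.52 and 2.91 FPKM in controls, which is 1.47-fold, and its log2 change was 0.41 (95% interval 0.18 to 0.64, limma adjusted p = 0.286). Foxo1 had 3.02, 3.04 and 3.25 FPKM with construct 7, against 2.60, 2.80 and 2.72 FPKM in controls, a log2 change of 0.15 (95% interval -0.03 to 0.33, limma adjusted p = 0.618). These 3 genes were separate from the controls in every library, but their differences did not pass adjustment over all genes.

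Eif4ebp1 had 32.0, 34.6 and 27.1 FPKM with construct 7, against 28.3, 30.3 and 25.6 FPKM in controls. The groups overlapped, and the log2 change was 0.15 (95% interval -0.10 to 0.39, limma adjusted p = 0.729). Fbxo32 had 60.8, 24.6 and 56.3 FPKM with construct 7, against 29.2, 47.3 and 51.5 FPKM in controls. Construct 7 held both the highest and the lowest Fbxo32 value of the 9 libraries, and the log2 change was 0.08 (95% interval -0.69 to 0.85, limma adjusted p = 0.975).

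Fbxo21 stood at 2.79, 2.79 and 2.80 FPKM with construct 7, a log2 change of 0.10 (limma adjusted p = 0.828). Fbxo31 had 25.8, 21.02 and 20.8 FPKM with construct 7 (log2 change -0.19, limma adjusted p = 0.616), and Foxo4 had 40.6, 28.5 and 32.0 FPKM (log2 change -0.16, limma adjusted p = 0.748). Foxo3 had 2.45, 2.54 and 2.98 FPKM (log2 change 0.06, limma adjusted p = 0.907). Each of these 4 genes overlapped the control range.

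The mean of both constructs was also set against the controls. limma called 0 of 9 members and 0.00926% of all tested genes, which is 1 gene, Ubr4 itself. Trim63 had a log2 change of 0.38 (SE 0.0765, limma adjusted p = 0.0821), Fbxo30 0.42 (SE 0.0875, adjusted p = 0.0851) and Eif4ebp1 0.34 (SE 0.0928, adjusted p = 0.127), the 3 members with an unadjusted p under 0.05, as had 19.1% of all tested genes. voom called 0 members and 0.0186% of all tested genes. All 6 siRNA libraries lay above all 3 controls for Trim63 and Fbxo30, 2 of 9 members, as they did for 8.04% of all tested genes.

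The constructs were then compared directly. limma called 0 of 9 members between construct 7 and construct 5, where it called 1.22% of all tested genes; voom called 0 members and 1.85% of all tested genes. At an unadjusted p under 0.05 there were 3 members, Eif4ebp1, Foxo1 and Trim63, and 23.1% of all tested genes. Eif4ebp1 averaged 31.25 ± 3.78 FPKM with construct 7 and 41.05 ± 3.81 FPKM with construct 5 (SD, n = 3 each), and its groups did not overlap, as for 22.4% of all tested genes with construct 7 lower. The difference was -0.39 on the log2 scale (95% interval -0.63 to -0.15, limma adjusted p = 0.0944), beside a median of -0.10 over all genes. Foxo1 differed by 0.18 (95% interval 0.0046 to 0.365, limma adjusted p = 0.209) and Trim63 by -0.20 (95% interval -0.40 to -0.0013, limma adjusted p = 0.215). For Fbxo30 the difference was -0.01 (95% interval -0.24 to 0.21, limma adjusted p = 0.938), and it turned to 0.08 with median-ratio scaling.

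Among replicates Fbxo32 varied far more than the other members. Its highest and lowest values within a group differed by 1.58-fold with construct 5, 2.47-fold with construct 7 and 1.77-fold in controls, where those of Trim63 differed by 1.22-fold, 1.12-fold and 1.10-fold. The SD of log2(FPKM + 1) within groups was 0.517 for Fbxo32, above that of 98.6% of all tested genes, and 0.0873 to 0.182 for the other 8 members. Fbxo32 was counted from 2329 to 6599 reads a library. Fbxo32 did not split by group or by replicate number, being low in construct 5 replicates 2 and 3, construct 7 replicate 2 and control replicate 1. The ratio of Trim63 to Fbxo32 was 1.73, 2.24 and 2.41 with construct 5, 1.23, 2.83 and 1.19 with construct 7, and 2.03, 1.15 and 1.17 in controls.

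**Figure D3:**
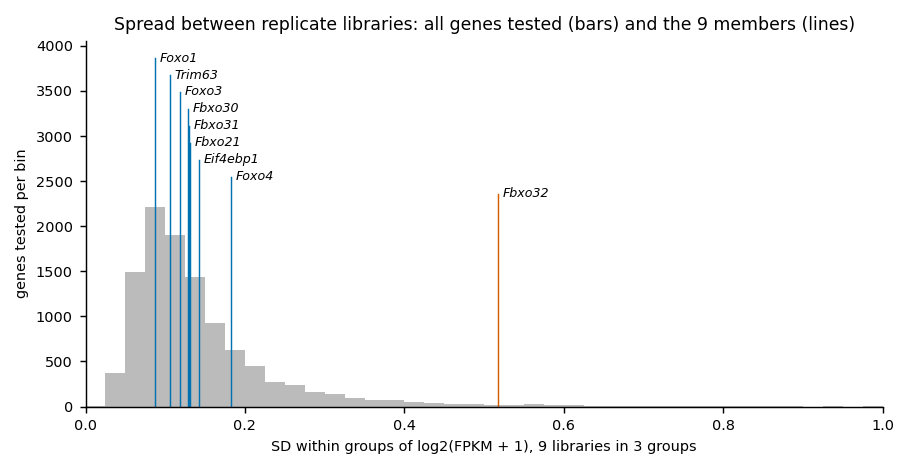
Histogram of the SD within groups of log2(FPKM + 1) over the 10794 genes tested (grey bars), with a line for each member; line heights carry no value, and the 6 genes with an SD above 1 lie beyond the axis. Fbxo32 lies at 0.517, and the other 8 members lie between 0.0873 and 0.182.

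Members also differed in which other genes they tracked over the 9 libraries, all correlations being of log2(FPKM + 1) and given as descriptions. Foxo4 and Fbxo31 moved together (Pearson r = 0.94, Spearman rho = 0.92, and r = 0.92 without the 2 libraries farthest from the median), also within groups, where deviations from group means had r = 0.95. Both were highest in control replicate 3, and lowest in construct 7 replicates 2 and 3. Trim63 followed Eif4ebp1 (r = 0.81, rho = 0.77, and 0.80 without the 2 farthest libraries) and Fbxo30 (r = 0.70, rho = 0.60, and 0.55 without them) across all libraries, but within groups the coefficients were 0.23 and -0.24. Trim63 and Fbxo32 had r = 0.04 and rho = 0.15. These libraries share group, delivery and scaling, which can move many genes at once.

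**Figure D4:**
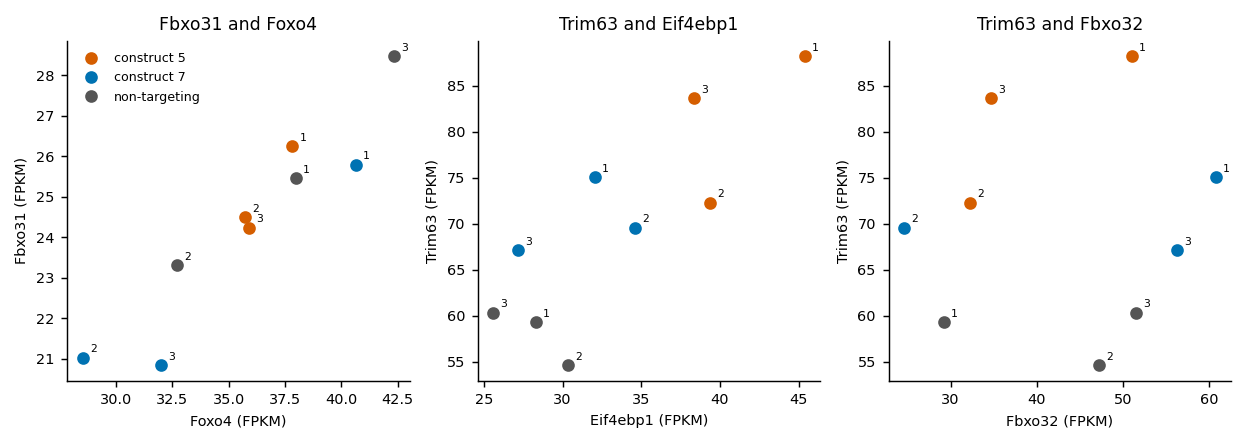
FPKM of pairs of members in the 9 libraries, coloured by group and numbered by replicate; axes do not start at 0. Fbxo31 and Foxo4 lie along a line (r = 0.94), Trim63 and Eif4ebp1 are both highest in construct 5 replicate 1, and Trim63 and Fbxo32 show no shared order (r = 0.04).

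The tested genes most like each member were found by Pearson correlation over the 9 libraries, leaving out gene models without a name. For Trim63 they were Gtf2h2 (r = 0.984), a subunit of the transcription factor TFIIH, Casc3 (0.983), of the exon junction complex, and Tbc1d23 (0.975). For Fbxo32 they were Pgm2l1 (0.920), Pik3ip1 (0.900), a known inhibitor of PI3-kinase, and Zfp874a (0.889). For Fbxo30 they were the ceramide glucosyltransferase Ugcg (0.983), the deubiquitinase Usp22 (0.976) and Zfp955b (0.971). For Eif4ebp1 they were Odf2 (0.962), the argininosuccinate lyase Asl (0.961) and the leucyl-tRNA synthetase Lars (0.961). Pik3ip1 shared the low Fbxo32 library of construct 7, at 8.07, 3.71 and 6.34 FPKM with construct 7 and 5.41, 6.59 and 6.76 FPKM in controls.

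Around the members, genes of the atrophy programme and known FoxO targets were examined as a list. Of 34 genes tested, 6 rose with construct 5, 0 fell and 28 did not pass, beside 4.67% of all tested genes called higher and 5.27% called in either direction, the shares against which the counts of the other lists with construct 5 also stand. At an unadjusted p under 0.05 there were 17 of the 34, and the share of all tested genes was 31.9%. Their median log2 change was 0.24, beside 0.13 for all genes. With median-ratio scaling it was 0.11, beside 0.01 for all genes, and 0 of the list and 0.723% of all tested genes were called. voom called 8 of the 34 genes and 5.58% of all tested genes. The stress-response transcription factor Nfe2l2 averaged 11.4 ± 0.236 FPKM with construct 5 and 7.92 ± 0.619 in controls (SD, n = 3 each; limma adjusted p = 0.0344). The cell cycle inhibitor Cdkn1a, a FoxO and p53 target, averaged 18.4 ± 2.72 FPKM with construct 5 and 6.24 ± 0.750 in controls (adjusted p = 0.0445). The stress gene Gadd45a averaged 25.9 ± 8.305 FPKM with construct 5 and 11.85 ± 1.023 in controls (adjusted p = 0.0423). The proteasome subunit gene Psma1 averaged 40.6 ± 2.42 FPKM with construct 5 and 31.3 ± 1.30 in controls (adjusted p = 0.0406). The named calls of all lists were not firm: over the alternatives run, the number that kept the call ran from 1 of 18 for Mdm2 and Skp1a to 9 of 18 for Eef2k. With construct 7 the list had 0 calls by limma and by voom, with a median of 0.12, beside 0.02 for all genes. At an unadjusted p under 0.05 it had 7 of 34 genes, where the share of all tested genes was 9.47%. Of the 4 genes named, Nfe2l2, Cdkn1a and Psma1 lay above every control in each construct 7 library, as did 10.5% of all tested genes, and Gadd45a overlapped the controls.

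The ligase machinery around the F-box members gave opposite calls with construct 5. Skp1a, the adaptor that joins an F-box protein to the cullin, had 103.5, 83.0 and 88.2 FPKM with construct 5, against 70.1, 73.0 and 69.7 FPKM in controls (log2 change 0.36, limma adjusted p = 0.0492). Cul1, the scaffold of the complex, had 16.6, 16.6 and 16.1 FPKM with construct 5, against 20.2, 20.5 and 21.7 FPKM in controls (log2 change -0.32, limma adjusted p = 0.0406). Skp1a was above every control in each construct 5 library, as were 33% of all tested genes. Cul1 was below every control, and the share of all tested genes in that direction was not computed. With median-ratio scaling Cul1 kept its limma call (adjusted p = 0.024) and Skp1a did not (0.152). Without any single control library, or without any single construct 5 library or construct 7 replicate 3, Cul1 lost its call with construct 5, over a range of adjusted p from 0.0215 to 0.138 for all alternatives. Of the 14 SCF genes tested, 1 rose, 1 fell and 12 did not pass, with a median of 0.13. With construct 7 limma and voom called 0 of them, with 4 of 14 at an unadjusted p under 0.05, as had 9.47% of all tested genes.

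Other lists gave few calls with construct 5. Of 24 other muscle ubiquitin ligases, 1 rose: the p53 ligase Mdm2, at 12.4 ± 1.004 FPKM with construct 5 and 9.16 ± 1.22 in controls (SD, n = 3 each; limma adjusted p = 0.0494, and 0.125 with median-ratio scaling). Of 23 FoxO partners and modifiers, 3 rose, and with median-ratio scaling 0 passed. Smad2, a transducer of TGF-beta and myostatin signals, averaged 3.645 ± 0.295 FPKM with construct 5 and 2.56 ± 0.283 in controls (limma adjusted p = 0.043). The others encode 14-3-3 proteins, which hold phosphorylated FoxO in the cytoplasm. Ywhaz averaged 9.55 ± 0.801 FPKM with construct 5 and 7.17 ± 0.155 in controls (limma adjusted p = 0.0491), and Ywhae 121 ± 8.04 FPKM with construct 5 and 98.3 ± 2.69 in controls (0.0491). Of 12 translation partners of 4E-BP1, 1 fell: the elongation factor kinase Eef2k, at 5.38 ± 0.350 FPKM with construct 5 and 9.14 ± 1.81 in controls (limma adjusted p = 0.0471, and 0.0448 with median-ratio scaling).

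Genes that feed into FoxO and 4E-BP1 from insulin, IGF and mTOR gave no call with construct 5. limma and voom called 0 of 24, with 1 at an unadjusted p under 0.05. The median of these genes was 0.12, beside 0.13 for all genes. Of all tested genes 31.9% had an unadjusted p under 0.05, the share beside which the next 2 such counts also stand. Irs1, the insulin receptor substrate, averaged 9.85 ± 1.024 FPKM with construct 5 and 8.19 ± 1.33 in controls (SD, n = 3 each; limma adjusted p = 0.166). Of 14 reported substrates of Trim63 and Fbxo32, limma and voom called 0, with 2 at an unadjusted p under 0.05. The myogenic factor Myog averaged 14.3 ± 3.58 FPKM with construct 5 and 6.58 ± 1.92 in controls (adjusted p = 0.0589), and the actin gene Acta1 averaged 18340 ± 891 FPKM with construct 5 and 20140 ± 374 in controls (0.447). Of 17 upstream atrophy and inflammation genes, limma and voom called 0, with 8 at an unadjusted p under 0.05. Their median was 0.25, beside 0.13 for all genes, and with median-ratio scaling 0.10, beside 0.01. The myostatin antagonist Fst averaged 1.71 ± 0.363 FPKM with construct 5 and 0.798 ± 0.119 in controls (adjusted p = 0.0598), and Nfkb1, a subunit of NF-kappaB, 6.69 ± 0.263 FPKM with construct 5 and 5.60 ± 0.340 in controls (0.0715).

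With construct 7, limma and voom called 0 genes of each of these 6 lists. At an unadjusted p under 0.05 there were 3 of 23 FoxO partners, 1 of 12 translation partners and 1 of 14 substrates. There were 0 of the insulin and IGF, other ligase and upstream genes, and the share of all tested genes was 9.47%. The medians were 0.07 for FoxO partners, 0.03 for the other ligases, 0.00 for insulin and IGF genes, -0.03 for translation partners, 0.10 for substrates and -0.03 for upstream genes, beside 0.02 for all genes.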

How the data were processed

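Total RNA was extracted with trizol, per the labels' protocols, and the authors deposited FPKM values for 23231 genes on mouse build mm9. BWA, STAR and HTSeq are named without versions or roles, per the submitters' processing notes; gene models and the handling of strand are not given in the sources used here. Fbxo32 and Foxo1 each have an antisense gene overlapping their exons (Gm15943 and Gm20402), which reached at most 0.0608 and 0.0379 FPKM in any library. Whole reads were recovered from the steps of the FPKM values: gene length and library depth together gave whole reads within 0.05 in every library for 10771 of 10794 tested genes (99.79%). Genes with a mean of at least 1 FPKM (10794) entered a single linear model of log2(FPKM + 1), fitted by limma 3.58.1 under R 4.3.3 (eBayes with trend) to the 9 libraries, in 4 contrasts, and Benjamini-Hochberg adjusted p under 0.05 was called. The same fit was also run on simulated data with the gene means and spread of these libraries, and the outcome is not given here. Intervals cover counting error or library spread only.

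All 9 members were named. Of each of 8 lists, up to 4 genes called in any contrast were named, by the smallest p against the controls, or the 2 with the smallest p as values where none was called. For 1 list, 1 of these genes is not reported here. The 3 most correlated genes were named for Trim63, Fbxo32 and each called member. Members and lists were chosen with earlier results of these data known. Figures were drawn with Python 3.11.15 and matplotlib 3.10.9.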

Additional observations from a re-analysis of the deposited data

Results flagged for a closer look

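Among the members and the genes named from the 8 lists, Cul1 was singled out. Its response differed between the constructs by a test of the difference itself. It averaged 21.3 FPKM with construct 7 and 16.4 FPKM with construct 5, a difference of 0.35 on the log2 scale (SE 0.0612, limma adjusted p = 0.0391, n = 3 each). All 3 construct 7 libraries lay above all 3 of construct 5, and the share of all tested genes separated in that direction was not computed. The difference passed in 7 of 18 alternatives, over a range of adjusted p from 0.0155 to 0.125, and among single libraries left out it passed only without construct 7 replicate 2 (0.0437). Median-ratio scaling gave 0.47 (adjusted p = 0.0161). No member had a called difference between the constructs. Cell type markers were outside this search, and some of them also differed. limma called 2 of 9 macrophage, 3 of 6 fibroblast and 2 of 6 tendon markers, all lower with construct 7 than with construct 5. Over all tested genes it called 1.22%. With median-ratio scaling 1 macrophage, 2 fibroblast and 1 tendon marker passed.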

How the results depend on the processing

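Other processing of 8 kinds and 2 further kinds added after seeing the data (voom on recovered reads, as they stand and with median-ratio scaling) gave 623 recomputed member changes; 560 kept direction and side of the threshold, 35 lost the call, 0 gained one and 28 changed sign. With construct 5, 2 members were called with a pseudocount of 0.1 or a mean of at least 5 FPKM, and 0 with no filter, median-ratio scaling, quantile normalization, the replicate block or voom with median-ratio scaling; 0 to 3 were called as single libraries were left out. The counts over all genes with construct 5 were 569 as deposited, 316 with a pseudocount of 0.1, 5 with no filter, 204 at 5 FPKM, 78 with median-ratio scaling, 86 with quantile normalization, 246 with the 2 groups alone, 11 with the replicate block, 152 with voom and median-ratio scaling, and 1 to 581 without single libraries. With construct 7 they were 6, then 0 with no filter, 2 with the 2 groups alone and 0 to 5 without single libraries. For both constructs they were 1, then 0 with no filter, 2 at 5 FPKM, 4 with the replicate block, 2 with voom and 0 to 7 without single libraries. Between construct 7 and construct 5 they were 132 (16 higher, 116 lower), then 10 with no filter, 48 at 5 FPKM, 79 (38 higher, 41 lower) with median-ratio scaling, 58 with quantile normalization, 23 with the 2 groups alone, 217 with the replicate block, 199 with voom and 3 to 387 without single libraries. The cause of these shifts was not tested.

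Sign changes were all in values that did not pass. Foxo1 for both constructs turned to -0.00867 with median-ratio scaling, -0.046 with quantile normalization and -0.011 with voom and median-ratio scaling. Between the constructs Fbxo30 turned to 0.081, 0.127 and 0.11 and Fbxo21 to 0.0146, 0.0728 and 0.00387 in the same order, and Foxo3 to 0.0314 with quantile normalization. Without single libraries Fbxo32 ranged from -0.35 to 0.0494 with construct 5, -0.165 to 0.486 with construct 7, -0.258 to 0.191 for both and -0.0451 to 0.59 between constructs. With construct 5 Fbxo31 ranged from -0.105 to 0.0343, Foxo4 from -0.133 to 0.048 and Foxo1 from -0.118 to 0.00853, and with construct 7 Foxo3 ranged from -0.00522 to 0.1. Between constructs Fbxo30 ranged from -0.116 to 0.0867 and Fbxo21 from -0.183 to 0.0248.

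Same-numbered libraries had correlations of their deviations from -0.36 to 0.31, and differently numbered libraries from -0.57 to 0.52. With 3 libraries a group these values cannot show whether replicate numbers pair the libraries. With the replicate block Trim63, Eif4ebp1 and Fbxo30 had adjusted p-values of 0.0518, 0.0518 and 0.0575 with construct 5. Depth limits the scarce members most: counting error alone reached 6.07% for Fbxo21, against 2.07% for Fbxo32.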
